A study of Mus musculus with 13 samples.

Results

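The genes described here are the MCM replication helicase subunits on the array and the factors that load or activate the helicase. They are Mcm2, Mcm3, Mcm4, Mcm5, Mcm6, Mcm7, Mcm10, Cdc6 and Cdt1, 9 of the 16593 genes named on the array. All 18 probes annotated to them were taken on all 13 arrays. The genes were chosen with results of these arrays known: Mcm2 had been lower in bone lesions while genes of mitosis were higher, and the question is whether the other subunits and other Mcm2 probes go the same way. The difference between lesion and non-lesion bone is therefore given below as a description of the members, with no p-value. Whether a member passed the adjusted p threshold of 0.05 used for all tested probes is likewise a description and not a test.

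Total RNA of tail (caudal) vertebral bone of mice aged 9 months, was hybridised to Illumina bead arrays. All mice had the C57BL/6x129Sv/B6 hybrid background. Bone lesions came from mice heterozygous for both Prkar1a and Prkaca (Prkar1a+/-Prkaca+/-, 2 arrays, called double heterozygotes) and from Prkar1a+/- mice (3 arrays). Bone without a lesion came from Prkaca+/- mice (4 arrays) and WT mice (4 arrays). Prkar1a encodes a regulatory subunit of protein kinase A and Prkaca a catalytic subunit of it. The comparisons address whether the lesions differ from bone without a lesion, and whether losing an allele of Prkaca changes either. Every Prkar1a+/- array is a lesion, so the effects of the lesion and of the Prkar1a allele cannot be told apart. Replicates are numbered in the labels, but whether each is another mouse is not said there, and the p-values below cover the spread between arrays only.

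Before S phase, the origin recognition complex, Cdc6 and Cdt1 load a ring of Mcm2 to Mcm7 onto origin DNA, which licenses the origin. The Cdc7-Dbf4 kinase, Mcm10, Cdc45 and the GINS complex then turn the loaded ring into a moving helicase. The ring subunits are textbook markers of cells that are in, or able to enter, the division cycle, and many of their genes are targets of E2F transcription factors.

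Between 13555 and 14831 of 25697 probes per array were detected (detection p under 0.01), and log2 values of arrays within a group correlated at 0.948 to 0.989. Prkar1a averaged 39.3% of its WT level in double heterozygote lesions, 37.2% in Prkar1a+/- lesions and 102.4% in Prkaca+/- bone. Prkaca averaged 24.9%, 47.4% and 54.9% of its WT level in the same order, so it was also below WT in Prkar1a+/- lesions, whose labels carry no Prkaca change. All 8 listed bone genes were higher in lesions and past the threshold, and 7 of them were detected on every array. Their summed intensity was 99086 to 111123 in double heterozygote lesions and 115668 to 134801 in Prkar1a+/- lesions, against 26422 to 32215 in Prkaca+/- and 33910 to 43488 in WT bone.

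Of the 18 member probes, 6 were detected on no array: the Mcm4 probes ILMN_2752009 and ILMN_2752010, the Mcm10 probe ILMN_2679464 and the Cdc6 probes ILMN_1230340, ILMN_3076228 and ILMN_3155217. The other 12 passed the filter (detected on at least 2 arrays) and cover all 9 genes, and 8 of them were detected on every array. Mcm2, Mcm3, Mcm5, Mcm7 and Cdt1 have 1 probe each, Mcm10 has 2, Mcm4 has 3, and Mcm6 and Cdc6 have 4 each. Mcm2 thus has no second probe with which its value could be compared. Probe sequences were not used here, so a probe stands for its annotated gene only, and levels of different probes are not set against each other. Intensities below are as deposited. Differences are on the log2 scale after background correction, addition of an offset of 16 and quantile normalisation, and the offset makes the differences of dim probes smaller.

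Mcm2 was lower in lesions, and the probes of 7 of the other 8 genes were higher. Mcm2 (ILMN_1250907), a subunit of the ring, had intensities of 198.3 and 209.0 in double heterozygote lesions and 184.5, 170.7 and 192.5 in Prkar1a+/- lesions. It had 239.2, 259.8, 376.2 and 220.2 in Prkaca+/- bone and 214.7, 208.2, 218.6 and 259.2 in WT bone. The highest lesion array thus reached just past the lowest WT array, and Prkaca+/- replicate 3 stood above all others. After normalisation the ranges no longer overlapped, with 6.70 to 7.13 on the log2 scale in lesions and 7.15 to 8.30 in non-lesion bone, but they overlapped again when arrays were scaled to a common 75th percentile (6.75 to 7.17 against 7.17 to 8.31). The log2 difference was -0.54 ± 0.16 (SE, 5 lesion and 8 non-lesion arrays), which put lesions at 68.8% of non-lesion bone.

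Mcm5 (ILMN_2742849), another ring subunit, had the largest difference among the members. Its intensities were 547.2 and 414.0 in double heterozygote lesions and 528.5, 570.3 and 454.6 in Prkar1a+/- lesions. They were 184.0, 179.7, 196.6 and 197.1 in Prkaca+/- bone and 227.5, 211.2, 188.4 and 191.1 in WT bone. Every lesion array was above every non-lesion array, and the log2 difference was 1.71 ± 0.12, a 3.27-fold higher level in lesions. This size depends on the processing: it was 1.34 without background correction and 1.49 with an offset of 50. The deposited intensities, background included, had a ratio of 2.55.

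Mcm4 (ILMN_2936427), also of the ring, had intensities of 1647 and 1279 in double heterozygote lesions and 1403, 1466 and 1401 in Prkar1a+/- lesions. The values were 944.3, 1034, 1030 and 981.8 in Prkaca+/- bone and 1158, 946.6, 862.0 and 921.6 in WT bone. The groups with and without a lesion did not overlap, and the log2 difference was 0.66 ± 0.10 (1.58-fold).

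Mcm6, a ring subunit as well, was measured by 3 probes that were detected on every array. The probe ILMN_1217331 had intensities of 1412 and 1109 in double heterozygote lesions and 1264, 1343 and 1108 in Prkar1a+/- lesions, against 709.8, 966.8, 992.9 and 884.6 in Prkaca+/- bone and 985.8, 1150, 784.0 and 489.0 in WT bone. On this deposited scale WT replicate 2 reached above both of the lowest lesion arrays, whereas the normalised values did not overlap, except when arrays were scaled to a common 75th percentile. The 3 probes gave log2 differences of 0.66 ± 0.19 (ILMN_1217331), 0.71 ± 0.16 (ILMN_1233857) and 0.56 ± 0.17 (ILMN_2803399), or 1.58-fold, 1.63-fold and 1.48-fold. WT replicate 4 was the lowest array for all 3, at 160.2 for ILMN_1233857 and 199.2 for ILMN_2803399. The last of these probes overlapped between lesion and non-lesion arrays, and ILMN_1217331 no longer passed the threshold without double heterozygote replicate 1 (0.56). The fourth Mcm6 probe, ILMN_1236125, was detected on 3 of 5 lesion arrays and on 0 of 8 non-lesion arrays, and its log2 difference of 0.50 ± 0.13 allows no fold above background and, without double heterozygote replicate 1, did not pass (0.35).

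Mcm3 and Mcm7, which complete the ring, were near the detection limit. Mcm3 (ILMN_2851040) was detected on 5 of 5 lesion arrays and 0 of 8 non-lesion arrays. Its intensities were 123.7 and 117.7 in double heterozygote lesions and 108.0, 119.9 and 120.4 in Prkar1a+/- lesions, against 98.3, 96.0, 106.1 and 101.9 in Prkaca+/- bone and 92.4, 88.6, 114.9 and 104.4 in WT bone. Its level was at least 1.34-fold higher in lesions, counted against the higher of its own value and the lowest detected signal on each non-lesion array. This bound depends on the background correction: the fitted log2 difference was 0.59 ± 0.10 as processed here, 0.33 with an offset of 50 and 0.25 without background correction, and the deposited intensities, background included, had a ratio of 1.18. Mcm7 (ILMN_2673889) was detected on all 5 lesion arrays and on 6 of the 8 others. It had 114.2 and 112.2 in double heterozygote lesions and 118.2, 117.3 and 116.3 in Prkar1a+/- lesions, against 103.7, 123.4, 113.2 and 111.2 in Prkaca+/- bone and 98.1, 108.3, 128.3 and 105.9 in WT bone. The Mcm7 lesion arrays lay inside the range of the others, with a log2 difference of 0.15 ± 0.14 that did not pass the threshold. On the authors' deposited scores the sign of both was turned, at -0.0023 score units for Mcm3 and -0.0090 for Mcm7, and neither passed the threshold there.

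Cdt1 and Cdc6, the loading factors, were both higher in lesions. Cdt1 (ILMN_2730463) had intensities of 685.8 and 536.5 in double heterozygote lesions and 574.8, 670.2 and 469.9 in Prkar1a+/- lesions. It had 246.0, 247.7, 392.9 and 254.4 in Prkaca+/- bone and 239.3, 313.0, 205.4 and 247.1 in WT bone. No lesion array overlapped a non-lesion array, although Prkaca+/- replicate 3 was the highest non-lesion array, as it was for Mcm2, and the log2 difference was 1.43 ± 0.18 (2.69-fold). Cdc6 (ILMN_2597255) had 178.0 and 154.2 in double heterozygote lesions and 184.2, 165.4 and 170.0 in Prkar1a+/- lesions, against 141.7, 128.4, 147.7 and 123.5 in Prkaca+/- bone and 129.6, 147.6, 124.3 and 132.0 in WT bone. Its groups did not overlap, and the log2 difference was 0.57 ± 0.13 (1.49-fold). That value was 0.32 without background correction, and on the authors' deposited scores Cdc6 (0.0092 score units) did not pass the threshold.

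Mcm10 (ILMN_2970532), which is not part of the ring and acts when it is activated, was detected on all 5 lesion arrays and on 6 of the 8 others. Its intensities were 214.6 and 176.3 in double heterozygote lesions and 208.0, 190.0 and 195.4 in Prkar1a+/- lesions, against 123.9, 101.7, 123.4 and 128.4 in Prkaca+/- bone and 110.4, 134.9, 114.0 and 116.2 in WT bone. All lesion arrays were above all others, with a log2 difference of 1.28 ± 0.16 (2.43-fold). For this dim probe the value was 0.71 without background correction.

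**Figure D1:**
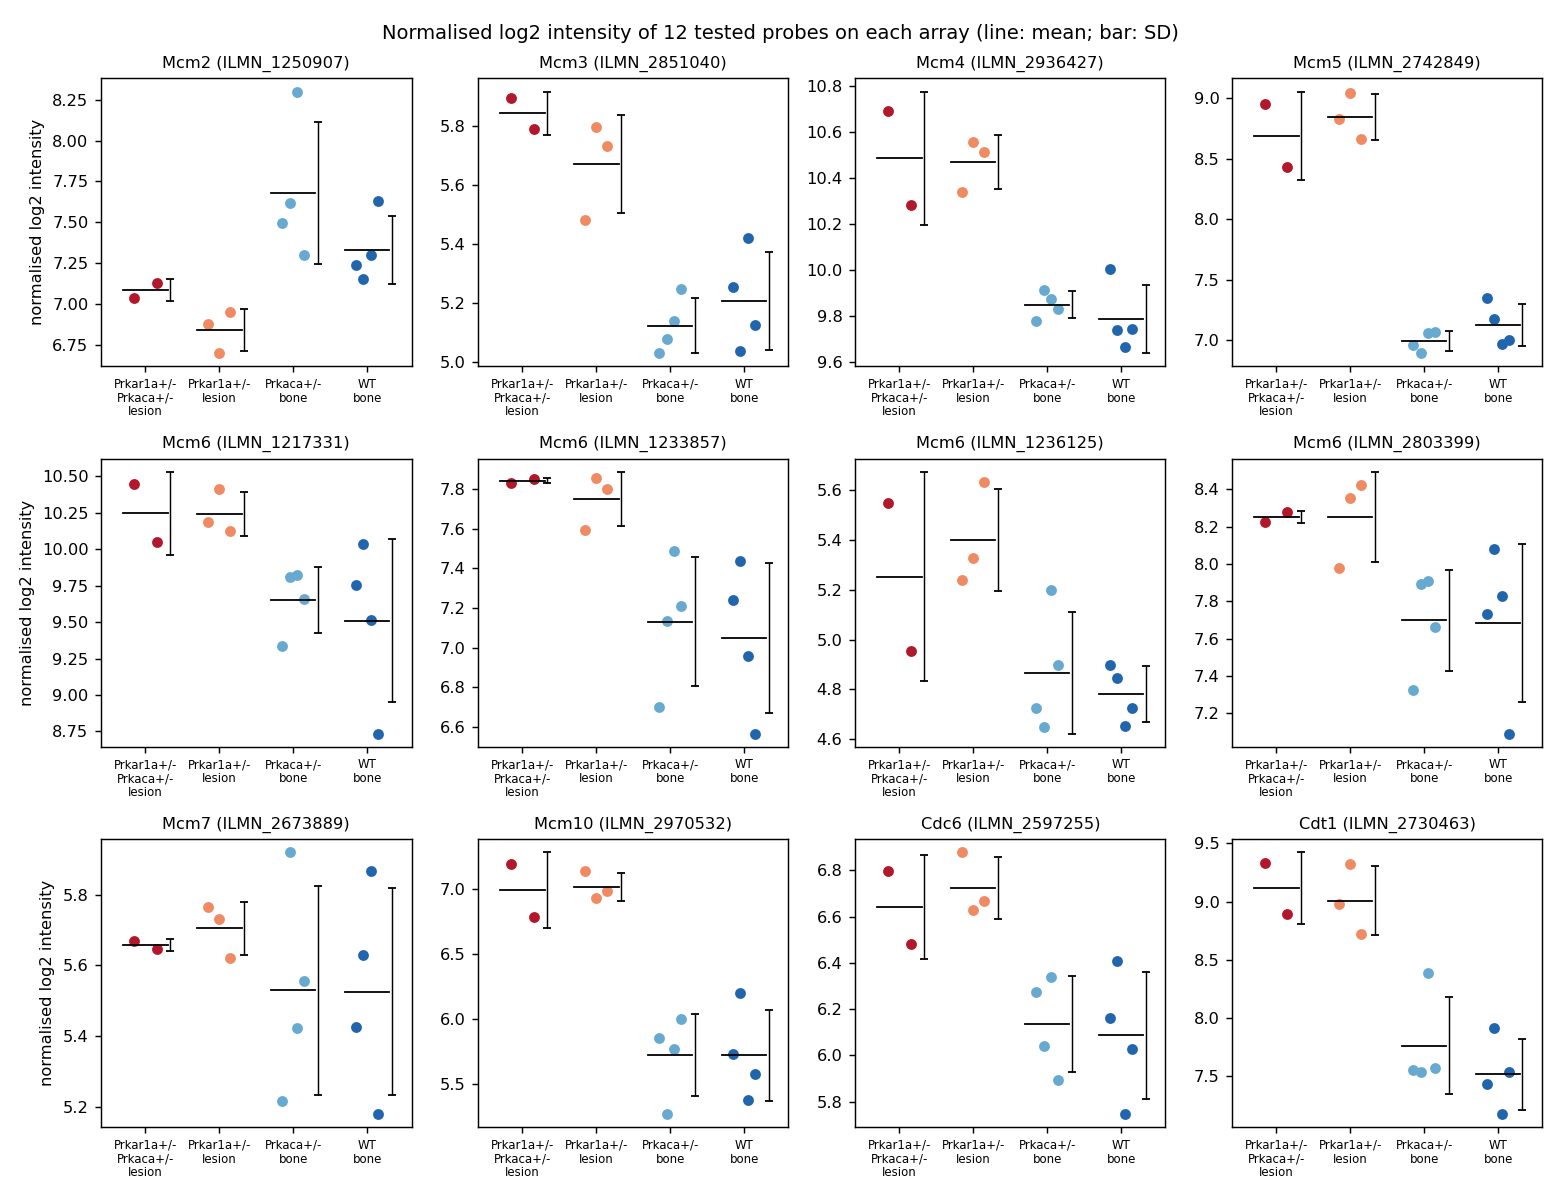
Normalised log2 intensity (vertical axis) of each of the 12 tested probes, by group; each point is an array, the line the group mean and the bar the SD. Mcm2 is the panel in which the lesion arrays lie below the others (6.70 to 7.13 against 7.15 to 8.30), while those of Mcm5 lie above (8.43 to 9.04 against 6.89 to 7.34).

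Over the 12 tested probes, 10 were higher and past the threshold (limma, Benjamini-Hochberg adjusted p under 0.05), 1 was lower (Mcm2) and 1 (Mcm7) did not pass. The 10 include Mcm3 and the Mcm6 probe ILMN_1236125, detected on 0 of 8 non-lesion arrays, which passed the filter only through lesion arrays. Among the 8 detected on every array, 7 were higher and 1 lower. Of all 16226 tested probes, 25.1% were higher and 26.2% lower by the same rule. Of the 11827 probes detected on every array, fitted alone, 26.4% were higher and 30.2% lower. Of the 8 probes, 6 had all lesion arrays above all others and Mcm2 had all of them below, against 14.1% and 13.6% of all tested probes. These 2 shares include probes not detected on every array. With 75th percentile scaling, Mcm2 and the Mcm6 probe ILMN_1217331 overlapped. The genes were chosen on this contrast, so nothing is read from these counts. The median log2 difference of all tested probes was -0.02.

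**Figure D2:**
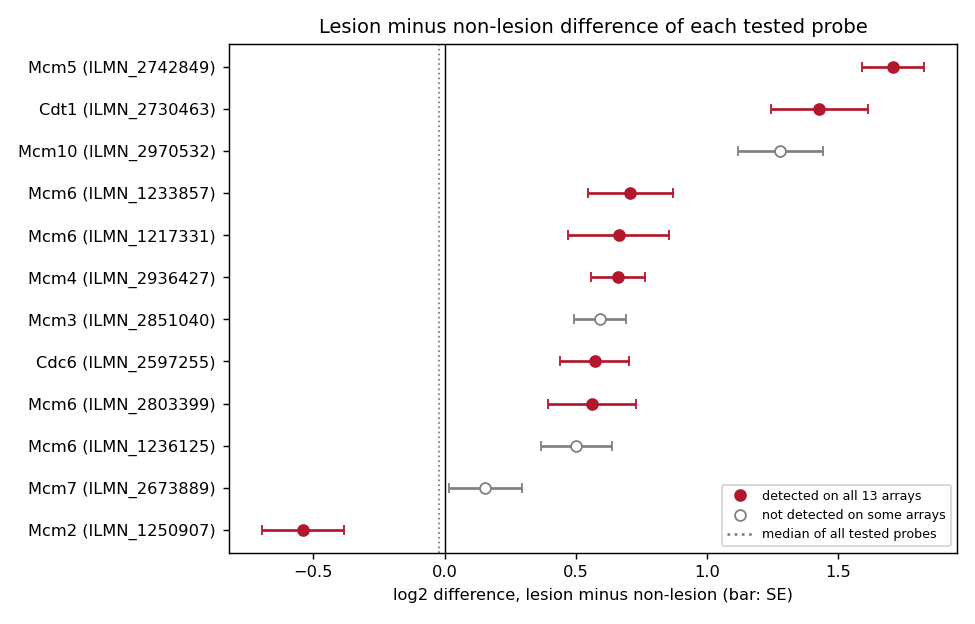
Log2 difference between lesion and non-lesion bone (horizontal axis) with its SE for each tested probe; filled points were detected on all 13 arrays and the dotted line is the median of all tested probes. The values run from -0.54 (Mcm2) to 1.71 (Mcm5), and the Mcm6 probes lie between 0.50 and 0.71.

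Markers of several other cell types moved with the same contrast, in which 25.1% of all tested probes were higher and 26.2% lower. Of 14 measured skeletal muscle genes, 10 were lower in lesions and past the threshold and 0 were higher. Their summed intensity was 185581 to 227322 in double heterozygote lesions and 47036 to 277375 in Prkar1a+/- lesions, against 321793 to 373476 in Prkaca+/- and 334979 to 435182 in WT bone. Of the 14, 13 were detected on every array. With the mean of this list as a covariate, the Mcm2 difference was -0.44 and no longer passed the threshold, and those of the 3 bright Mcm6 probes were 0.49, 0.55 and 0.38 and did not pass either. Nor did the fourth Mcm6 probe (0.46). Mcm3, Mcm4, Mcm5, Mcm10, Cdc6 and Cdt1 still passed the threshold, at 0.46, 0.56, 1.56, 1.32, 0.65 and 1.20. The list mean was lower on every lesion array (at most 13.20) than on every other (at least 13.43), so this covariate is confounded with the lesion. It also cut the calls among all tested probes to 9.59% higher and 7.25% lower. What the lost calls reflect was not tested. All 6 osteoclast genes were higher in lesions, with summed intensities of 61150 to 63516 in double heterozygote and 62960 to 69590 in Prkar1a+/- lesions, against 6505 to 10640 in Prkaca+/- and 7879 to 17456 in WT bone. Of 4 measured red cell genes 3 were lower, with sums of 1743 to 6978 and 2027 to 5328 in the lesions, against 10947 to 33866 and 5371 to 23122 in the same order of groups. Of 6 granulocyte genes 4 were higher, as were 3 of 5 T and NK cell genes and 2 of 3 macrophage genes, whereas 4 of 4 adipocyte genes were lower. Of 4 B cell genes 1 was lower and 3 did not pass, a share near that of all tested probes. The median log2 difference of the B cell list was 0.11. The part of these cell types in the members' differences was not tested. In bulk bone RNA, fewer cells of a type and less RNA per cell cannot be told apart.

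All 12 probes differed with the same sign in both lesion groups, each set against its own counterpart without a lesion. The lesion difference on which the members were chosen is the mean of these 2 effects, so their shared sign is a description and not support. The share of all tested probes with a shared sign is not given here. For Mcm2 the log2 difference was -0.59 ± 0.24 between double heterozygote lesions and Prkaca+/- bone and -0.49 ± 0.21 between Prkar1a+/- lesions and WT bone. In the same order it was 1.70 ± 0.18 and 1.72 ± 0.16 for Mcm5, 1.27 ± 0.24 and 1.29 ± 0.21 for Mcm10, and 0.64 ± 0.15 and 0.68 ± 0.14 for Mcm4. Cdt1 was 2.56-fold higher in double heterozygote lesions and 2.82-fold higher in Prkar1a+/- lesions, each than in its own counterpart. The test of the difference between both lesion effects, which the choice of genes did not use, passed for 0 of 12 probes in limma (0% of all tested probes). At an unadjusted p under 0.05 it passed for 0 of 12 and for 385 of all 16226 probes (2.37%). The estimates ran from -0.23 to 0.26, and the lowest unadjusted p was 0.222 (Mcm3). For Mcm2 the 95% interval of this difference was -0.79 to 0.57, so effects that differ by more than the Mcm2 difference itself are inside it.

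The loss of a Prkaca allele moved no member past the threshold, with or without a lesion. Between double heterozygote and Prkar1a+/- lesions, 0 of 12 probes passed (0% of all tested probes in limma), and 0 of 12 had an unadjusted p under 0.05, against 551 of all probes (3.40%). The log2 differences ran from -0.16 (Mcm5) to 0.24 (Mcm2, 95% interval -0.30 to 0.78), and the lowest unadjusted p was 0.296 (Mcm3). Both double heterozygote arrays had higher Mcm2 than all 3 Prkar1a+/- lesion arrays, a difference with an adjusted p of 1.00 in limma.

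Between Prkaca+/- and WT bone, again 0 of 12 probes passed (0% of all tested probes in limma), and 0 of 12 had an unadjusted p under 0.05, against 263 of all probes (1.62%). Differences ran from -0.13 (Mcm5) to 0.35 (Mcm2, 95% interval -0.07 to 0.76, unadjusted p 0.0943 and adjusted p 1.00). The Mcm2 value rests largely on Prkaca+/- replicate 3: without it the difference was 0.14. The next highest was Cdt1 at 0.25 (95% interval -0.24 to 0.73), which came to 0.04 without the same array. The intervals differed in width between probes: that of Mcm4 was -0.21 to 0.33, well short of its lesion difference of 0.66, and that of Mcm6 (ILMN_1217331) was -0.37 to 0.66, which ends just short of its lesion difference.

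**Figure D3:**
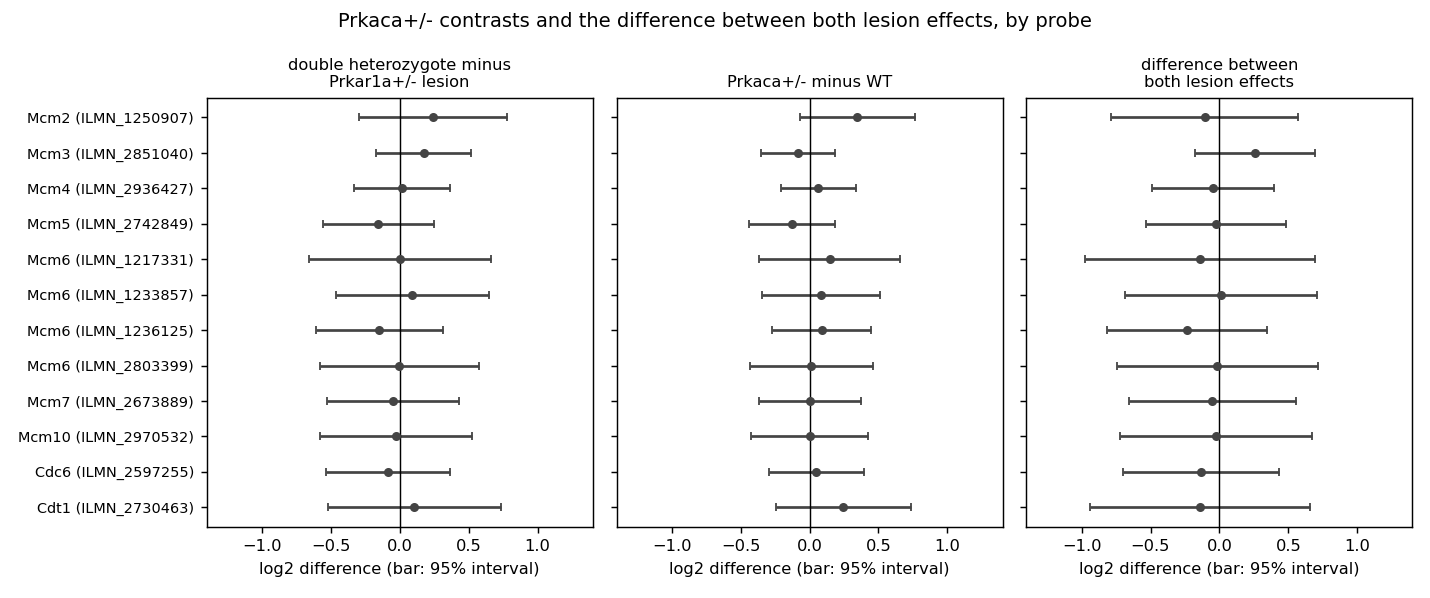
Log2 differences (horizontal axes) with 95% intervals for each tested probe: double heterozygote minus Prkar1a+/- lesions, Prkaca+/- minus WT bone, and the difference between both lesion effects. Every interval spans 0, and the estimates lie between -0.23 and 0.35.

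In the order of the group means, Mcm2 was highest in Prkaca+/- bone, followed by WT bone, double heterozygote lesions and Prkar1a+/- lesions. The ranges of Prkaca+/- and WT bone overlapped, and the other neighbours in this order did not. WT bone and double heterozygote lesions were barely apart (lowest 7.15 against highest 7.13). Lesion and non-lesion ranges of Mcm2 overlapped in the deposited intensities and with 75th percentile scaling. A share of all tested probes with such an order is not given here, so nothing is read from it. For every other tested probe both lesion groups came first. Within the lesion groups and within the non-lesion groups neighbours overlapped for each of these 11 probes, and for Mcm7 and the Mcm6 probe ILMN_1236125 all neighbours did.

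Across arrays, with the group means taken off so that the lesion difference is left out, the log2 values of Mcm2 had Pearson correlations of -0.28 to 0.42 with the other 11 tested member probes. Other members had negative coefficients too: Mcm3 had -0.66 with Cdc6 and -0.31 with Mcm10, and Mcm7 had -0.34 with both Mcm10 and Cdc6. The 3 bright probes of Mcm6, which share a gene, correlated with each other at 0.84 to 0.88. These coefficients describe values that share arrays and normalisation. Of named genes outside the members, Polr1d, Csdc2, Prph, Ddx4 and Wfs1 had the patterns most like Mcm2 over 13 arrays, at 0.97, 0.94, 0.92, 0.91 and 0.91. With group means removed they were Polr1d, Pmel, Map2k2, C1galt1c1 and B9d1, at 0.95, 0.95, 0.95, 0.94 and 0.93. Prkaca+/- replicate 3 carries part of this likeness: without it the 10 values lay between 0.80 and 0.94. Polr1d, which encodes a subunit of RNA polymerases I and III, headed both orders, and its lesion difference was -0.53.

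The promoter windows of the member with a lower level and of the 3 members with the largest differences are shown so that their E2F-type sequences can be compared. RefSeq windows (GRCm38.p6) run from 250 bases before to 50 bases after the annotated start, 5′ to 3′ on the gene's strand, and were at hand for 8 of the 9 genes, all but Mcm4. Capitals mark matches to TTTCCCGC, TTTCGCGC, TTTGCCGC or TTTGGCGC on either strand, the other letters being unmatched. The windows are chr6:88898731-88899030 (minus strand) for Mcm2, chr8:75109259-75109558 (plus) for Mcm5, chr8:122567765-122568064 (plus) for Cdt1 and chr2:5012742-5013041 (minus) for Mcm10.
Mcm2: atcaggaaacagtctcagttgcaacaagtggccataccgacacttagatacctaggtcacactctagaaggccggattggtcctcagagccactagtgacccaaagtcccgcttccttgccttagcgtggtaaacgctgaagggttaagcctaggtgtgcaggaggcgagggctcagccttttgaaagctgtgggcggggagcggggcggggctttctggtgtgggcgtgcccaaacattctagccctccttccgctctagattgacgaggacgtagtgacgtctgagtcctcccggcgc
Mcm5: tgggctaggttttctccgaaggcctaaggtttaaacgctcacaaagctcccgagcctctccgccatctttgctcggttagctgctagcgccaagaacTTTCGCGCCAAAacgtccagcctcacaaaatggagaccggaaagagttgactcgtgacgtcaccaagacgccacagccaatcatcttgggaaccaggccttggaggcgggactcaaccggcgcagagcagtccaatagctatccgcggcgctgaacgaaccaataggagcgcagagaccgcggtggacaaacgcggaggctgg
Cdt1: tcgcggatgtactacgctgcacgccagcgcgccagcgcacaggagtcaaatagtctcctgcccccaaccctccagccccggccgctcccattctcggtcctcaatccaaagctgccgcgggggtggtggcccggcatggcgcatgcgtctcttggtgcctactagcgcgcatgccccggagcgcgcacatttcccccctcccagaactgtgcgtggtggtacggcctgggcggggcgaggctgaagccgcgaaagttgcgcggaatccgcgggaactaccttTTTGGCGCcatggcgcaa
Mcm10: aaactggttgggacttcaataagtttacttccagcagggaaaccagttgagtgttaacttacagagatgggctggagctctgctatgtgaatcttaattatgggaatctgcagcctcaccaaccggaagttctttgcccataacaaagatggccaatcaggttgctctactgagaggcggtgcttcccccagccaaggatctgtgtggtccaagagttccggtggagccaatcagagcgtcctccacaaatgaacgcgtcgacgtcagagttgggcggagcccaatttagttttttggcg

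The Mcm2 and Mcm10 windows held 0 matches, the Cdt1 window 1 and the Mcm5 window 2 that overlap on opposite strands. Of the others, Mcm3 had 2 matches, Mcm6 had 3, of which 1 pair overlaps, and Cdc6 had 1. Mcm7 has 2 windows, and the matches were in 1 of them, which held 2. In all, 6 of 9 member windows held a match, against 2.26% of 32851 windows of that length in the table. The motif CCAAT was in 7 of the 9 windows, Mcm2 (1 match) and Mcm10 (3 matches) included, against 37.4% of all windows. The Mcm10 window ends with TTTGGCGC short of its last letter, and the base after the window was not used here. A match is a description of the letters, and its absence says only that these letters are not in this window.

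The other genes of licensing and origin firing were described from a fixed list. Of 21 measured genes 7 were higher in lesions and past the threshold and 0 lower. Beside them, 25.1% of all tested probes were higher and 26.2% lower. The lower count was 1 without WT replicate 2 or without double heterozygote replicate 1. The median log2 difference of the list was 0.18. Only 13 of the 21 were detected on every array, of which 3 were higher. Of all probes detected on every array, fitted alone, 26.4% were higher, so this count is not read as a rise. The 2 largest differences were those of Clspn, which encodes the checkpoint adaptor claspin (1.78 ± 0.12, detected on 7 of 8 non-lesion arrays), and Dbf4, the activating subunit of the Cdc7 kinase (1.42 ± 0.15). The others past the threshold, named after their values were seen, were Timeless, Gmnn, Cdc7, Wdhd1 and Topbp1. Gmnn encodes geminin, the inhibitor of Cdt1, and was detected on all 5 lesion arrays and on 0 of the 8 others. None of the 5 measured origin recognition genes (Orc2 to Orc6) passed, nor did Cdc45, Gins3 or Gins4.

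Of 26 measured S phase genes 17 were higher and 4 lower, with a median of 0.58, beside 25.1% higher and 26.2% lower among all tested probes. The largest were Uhrf1, which recruits the maintenance DNA methyltransferase (2.29 ± 0.15 by its log2 difference), and Chaf1b, a subunit of the chromatin assembly factor (1.79 ± 0.16). The lowest were Pold2, a subunit of DNA polymerase delta (-0.55 ± 0.16), and Rpa2, of the single-stranded DNA binding complex (-0.52 ± 0.13). Mcm2 was thus not alone among replication genes in being lower by this amount, though Pold2 and Rpa2 are the extremes of the list. With the skeletal muscle list as a covariate, 0 S phase genes were lower and past the threshold. Under that covariate only 7.25% of all tested probes were lower, so nothing is read from this count. Of 20 measured regulators of the G1/S step 8 were higher and 5 lower, with a median of 0.27. The lower count is a share close to the 26.2% of all tested probes. Only 3 were lower and past the threshold without Prkar1a+/- lesion replicate 1, and likewise 3 without double heterozygote replicate 2. Rbl1, a pocket protein (1.11 ± 0.25, detected on 4 of 8 non-lesion arrays), and Ccnd2, cyclin D2 (0.91 ± 0.16), were the highest, and E2f6, a repressor of the E2F family (-1.12 ± 0.17), and Tfdp2, an E2F partner (-0.77 ± 0.18), the lowest.

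Of 22 measured genes of G2 and mitosis 21 were higher and 0 lower, beside 25.1% higher and 26.2% lower among all tested probes. Their median was 1.65, led by Prc1, a spindle midzone protein (2.53 ± 0.20), and Top2a, topoisomerase II alpha (2.39 ± 0.17, detected on 1 of 8 non-lesion arrays). Several genes of the list were detected on 0 of 8 non-lesion arrays and passed the filter only through lesion arrays. This list was part of the reason for choosing the members, and only 6 of its genes were detected on every array, all 6 of them higher. Of the member differences, that of Mcm5 (1.71) was just above the median of this list, and those of Cdt1 (1.43) and Mcm10 (1.28) were below it. Those of Mcm3, Mcm4, Mcm6 and Cdc6 were near the S phase median. As this list was part of the choice, nothing is read from these positions. No test was made between lists.

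**Figure D4:**
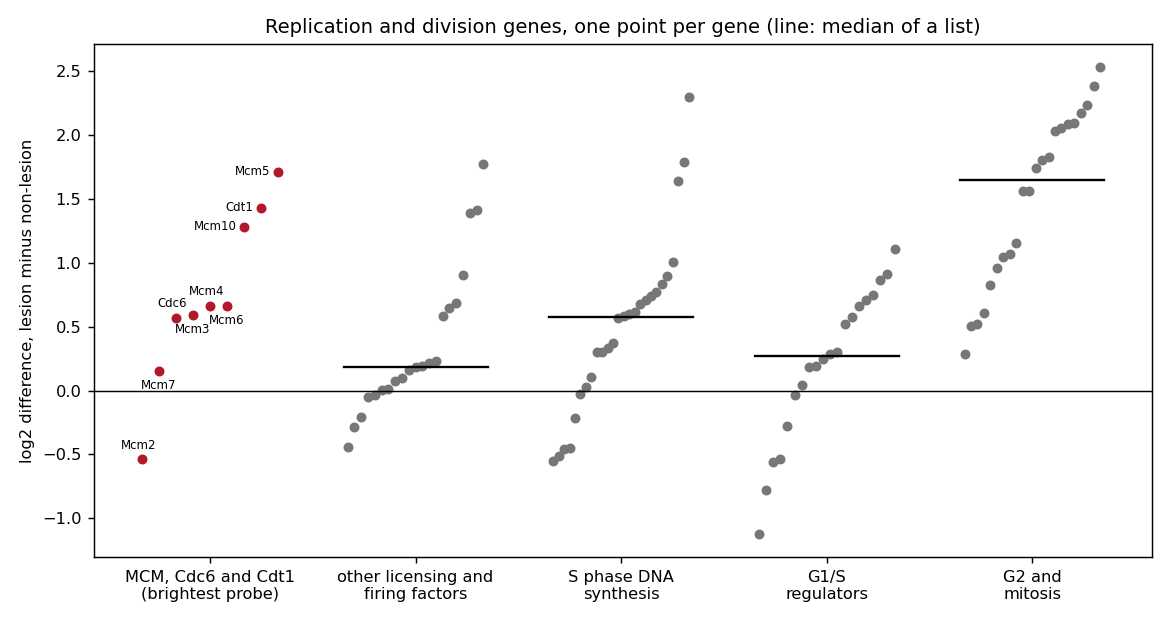
Log2 difference between lesion and non-lesion bone (vertical axis) for each gene, 1 point a gene, for the 9 members at their brightest probe and for 4 lists of replication and division genes; the line is the median of a list. Medians are 0.18 for other licensing factors, 0.58 for S phase, 0.27 for G1/S and 1.65 for G2 and mitosis, and Mcm2 (-0.54) sits beside the lowest S phase genes.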

How the data were processed

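The first deposited table gives, per the file headers, unnormalized mean intensity for 25697 probes on 13 arrays, beside the authors' detection p-value. Intensities with a deposited detection p-value above 0.1 were left empty by the authors. The other deposited table holds scores of a unit that the labels do not state, which followed a straight line against the intensities of the same array, that is, z-scores within an array, with array medians of -0.180 to -0.160. The sources used here name no scanner, slide or scan date, and no batch could be tested. RNA was isolated with Trizol and made into biotinylated cRNA, per the labels' protocols.

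Each array's background came from regressing intensity on normal quantiles of the detection p-value between 0.01 and 0.1 (r between 0.972 and 0.997), and empty intensities were filled from that line. Normexp correction, an offset of 16, quantile normalisation and log2 followed. Probes detected (p under 0.01) on at least 2 arrays were tested, 16226 in all. The platform annotation gave 1 symbol for 23978 probes, of which 23962 matched RefSeq by gene identifier. The number of arrays limits the precision.

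Tests used limma 3.58.1 (R 4.3.3), a mean for each of 4 groups, eBayes, and 9 residual degrees of freedom. P-values were adjusted by Benjamini-Hochberg over all tested probes, at a threshold of 0.05. Lesion is the mean of both lesion groups and non-lesion that of both others. Lesion differences and both lesion effects share their arrays with the contrast on which the members were selected, so no p is given for them there. The fit was tested on simulated data.

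All members are named with all probes, and of each list the 2 genes with the largest difference past the threshold in each direction, each gene by its brightest tested probe. The 5 genes most like Mcm2 were taken by Pearson correlation. Members and lists were chosen with earlier results of these data known. Alternatives were other background, offset, scaling and filter settings, sex or the skeletal muscle list as a covariate, the replicate number as a block, the deposited scores, and leaving out each array. Sex was called from Xist and Y-linked probes. Xist was above the Y-linked probes in WT replicate 2, Prkaca+/- replicate 4, Prkar1a+/- lesion replicates 2 and 3, and double heterozygote replicate 2. The calls were thus not balanced between lesion and non-lesion arrays. Deviations of same-numbered arrays of different groups correlated at -0.24 to 0.36 (median -0.01, over 16 pairs). Those of arrays with different numbers correlated at -0.33 to 0.26 (median 0.01, over 46 pairs), so the highest value was between same-numbered arrays. With so few arrays in a group, this cannot decide whether the numbers pair arrays.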

Additional observations from a re-analysis of the deposited data

Results flagged for a closer look

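Cdt1 in Prkaca+/- replicate 3 stood apart from the other arrays of its group, at a log2 value of 8.38, and its gap to the next array took up nearly the whole range of the group. It was 1 of 24 groups of 4 arrays examined (12 probes in Prkaca+/- and WT bone), and how often chance gives such a gap was not tested. The same array had the highest Mcm2 value, 8.30. Without it, the lesion difference of Cdt1 was 1.53 and that of Mcm2 -0.44.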

How the results depend on the processing

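No result changed sign in the alternatives on the intensity scale for the lesion differences of member probes. With the skeletal muscle list as a covariate, higher member probes (7 of those detected on every array) numbered 4 and lower ones (1) 0. Higher and lower S phase genes then numbered 8 and 0, higher licensing genes 4, and G1/S genes 4 higher and 2 lower. That covariate also reduced all calls, to 9.59% higher and 7.25% lower, and moved the share of higher among them to 56.9%, against 48.9%. With probes detected on every array, fewer genes were tested, and higher genes numbered 3 (licensing), 5 (G1/S) and 6 (G2 and mitosis). Scaling to the 75th percentile left 3 lower G1/S genes. On the deposited scores, 12 genes of G2 and mitosis were higher and 2 licensing genes lower. Leaving out 1 array at a time gave 3 to 5 lower G1/S genes (3 without Prkar1a+/- lesion replicate 1 or double heterozygote replicate 2) and 0 to 1 lower licensing genes (1 without WT replicate 2 or double heterozygote replicate 1). The cause was not tested.

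The Mcm2 difference ran from -0.60 to -0.44 when leaving out 1 array at a time, and was -0.38 without background correction, -0.44 with an offset of 50, -0.49 with 75th percentile scaling and -0.47 with sex as a covariate. Without background correction the dim probes of Mcm3 (0.25), Cdc6 (0.32), Mcm10 (0.71), Mcm7 (0.06) and Mcm6 ILMN_1236125 (0.23) moved by over 1.5 times, and with an offset of 50 so did Mcm3 (0.33), Mcm7 (0.09) and ILMN_1236125 (0.25). The Mcm6 probe ILMN_1217331 lost its call without double heterozygote replicate 1 (0.56) and with the replicate number as a block (0.52). That replicate block gave -0.50 for Mcm2 and changed no other member call. The 3 Prkaca and difference tests had 0 member calls under each alternative.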
